A study of Mus musculus with 6 samples.

Results

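Genes for the enzymes that cut and cross-link the extracellular matrix, and for the inhibitors of those enzymes, were examined in the tibialis anterior (TA) muscle of aged mice given BML-260, a small molecule that the study used to inhibit the phosphatase DUSP22. The 40 members were chosen by symbol, with 1 match left out, from the protein-coding genes named Mmp, Adamts, Timp1 to Timp4, Lox or Loxl among the 16800 genes listed with a TPM value, a transcript level scaled for gene length and library size. They were 12 matrix metalloproteinases (MMPs), 14 ADAMTS proteases, 5 ADAMTS-like proteins, 4 tissue inhibitors of metalloproteinases (TIMPs) and 5 lysyl oxidases. All mice were male C57BL/6J animals, aged 24 months according to the labels, and the wider age range that the study's text gives was not resolved here. BML-260 was injected into the peritoneum daily at 5 mg/kg for 1 month in 3 mice, and the 3 vehicle mice received DMSO and Tween 80 alone. Total RNA of the whole muscle was sequenced, 1 library per mouse, so that fewer cells of a type and less RNA per cell cannot be told apart.

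MMPs are zinc-dependent enzymes, secreted or held at the cell surface, that cut collagens, proteoglycans and other matrix proteins, and TIMPs bind and block their active sites. ADAMTS enzymes are secreted relatives that cut proteoglycans such as versican and aggrecan or trim procollagens, while ADAMTS-like proteins share their domains but have no protease domain. Lysyl oxidases oxidize lysine residues in collagen and elastin, the step that starts cross-linking. In skeletal muscle these genes are known mainly from fibroblasts, vessel cells and invading leukocytes, and the matrix they act on is remodeled in repair, disuse and aging.

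The libraries held between 39522890 and 56998875 counts. Vehicle replicate 3 stood apart: its mean correlation with the other libraries was 0.962, against 0.984 to 0.986 for the rest. The 40 members summed to 210, 187 and 370 TPM in vehicle replicates 1, 2 and 3, and to 190, 182 and 196 TPM in the BML-260 libraries. TPM in vehicle replicate 3 exceeded the mean of vehicle replicates 1 and 2 in 37 of the 40 members, with a median ratio of 1.96, but the median ratio over 15627 tested genes with a TPM was also 1.42. With normalized counts, which are counts divided by a size factor for each library, that ratio was 1.36 for the members and 1.00 for the same genes. Values without this library are therefore given beside the results that rest on it. The markers of muscle fibers, such as Acta1 and Ckm, summed to between 74143 and 104023 TPM in the 6 libraries, so the labelled tissue was borne out by its markers. Of the 5 bone and cartilage markers, Bglap and Sost were at 0 in all libraries, Alpl had between 202 and 583 counts, Ibsp had 272 counts in vehicle replicate 3 and at most 5 elsewhere, and Col2a1 had 33 counts in that library and at most 12 elsewhere.

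Of the 40 genes, 33 did not differ past the threshold used, and those that did were mostly lower with BML-260. A gene met the call where it differed by 1.3-fold or more and its unadjusted p was under 0.05. The call was met by 7 members (17.5%), 1 higher and 6 lower, against 5.75% of all 16188 tested genes, 4.86% lower and 0.896% higher. The lower members were Timp1, Mmp14, Mmp3, Mmp8, Lox and Adamts9, and the higher member was Mmp15. The median log2 fold change over the members was -0.23, and 27 of the 40 values (67.5%) lay below 0, against 50.5% of all tested genes. The median over all tested genes was -0.0039. By family the medians were -0.50 for the MMPs, -0.23 for the ADAMTS genes, 0.093 for the ADAMTS-like genes, 0.049 for the TIMPs and -0.31 for the lysyl oxidases, and without vehicle replicate 3 they were -0.24, -0.11, 0.18, -0.022 and -0.16 in the same order.

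After correction for all tested genes, 0 members and 0 genes in all had a Benjamini-Hochberg adjusted p under 0.05 in edgeR's quasi-likelihood test, where 7 members and 966 genes (5.97%) had an unadjusted p under 0.05. DESeq2 gave 0 members and 95 genes at the same adjusted limit. The smallest adjusted p of a member in edgeR was 0.699. Without vehicle replicate 3 the median of the members was -0.086, and 4 members (Timp1, Mmp14, Mmp15 and Adamts8) met the call, beside 3.98% of 16502 genes. Vehicle replicate 3 was the highest of the 6 libraries for 20 of the 40 members, and for 32.3% of all tested genes.

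**Figure D1:**
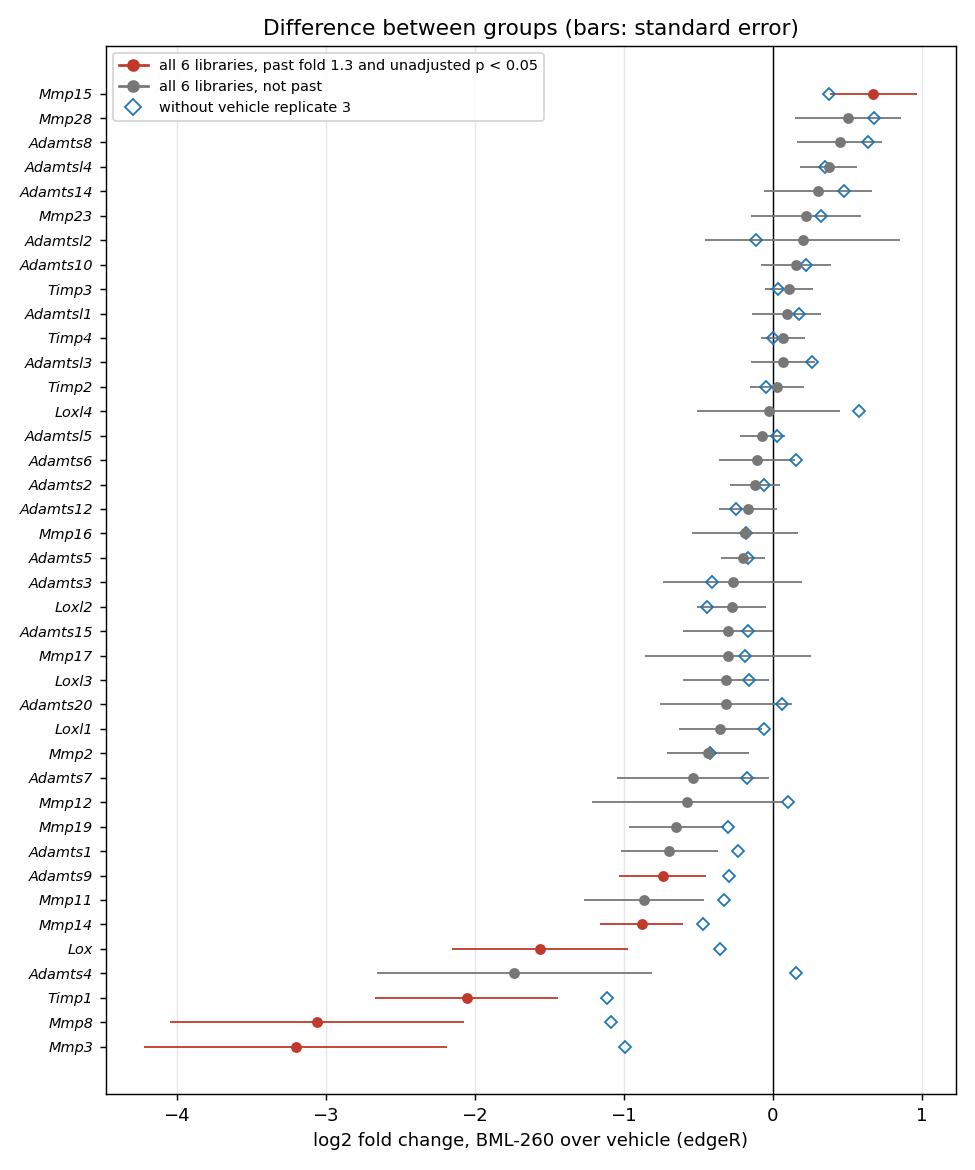
Log2 fold change of BML-260 over vehicle for the 40 members, ordered by value, with bars of 1 standard error from the fit to 3 libraries a group and open diamonds for the fit without vehicle replicate 3. Most filled points lie left of 0, and the points far to the left (Mmp3, Mmp8, Timp1, Adamts4 and Lox) lie nearer to 0 once vehicle replicate 3 is left out.

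Of the 6 members with a mean of at least 10 TPM, 3 were inhibitors (Timp3, Timp2 and Timp4). Timp3, whose protein is bound to the matrix, was listed at 57.4, 42.9 and 60.6 TPM in the vehicle libraries and at 50.9, 52.9 and 52.2 TPM in the BML-260 libraries. It made up between 52.0% and 57.2% of the summed TIMP level in every library. Timp2, which also takes part in activating pro-MMP2 at the cell surface, was at 28.8, 20.1 and 29.6 TPM with vehicle and at 25.9, 23.3 and 22.3 TPM with BML-260. Timp4, a TIMP of heart, muscle and fat, was at 14.0, 15.9 and 18.5 TPM with vehicle and at 12.7, 17.1 and 16.1 TPM with BML-260. For each of these 3 genes the groups overlapped, and the BML-260 values lay within or near the vehicle range. Their log2 fold changes were 0.11 ± 0.16 for Timp3, 0.029 ± 0.18 for Timp2 and 0.069 ± 0.15 for Timp4 (± SE), and the sign of each turned when log2 TPM was tested in place of counts. Timp3 and Timp4 lie inside the genes Syn3 and Syn2 on the opposite strand. The Syn2 count was 245 in vehicle replicate 3 and between 25 and 38 in the other libraries, and how reads were assigned by strand is not given in the sources used here.

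Timp1, the inhibitor known as inducible in inflamed and injured tissue, was the rarest of the family and the only one that met the call. Its normalized counts were 35.3, 40.7 and 142 in vehicle replicates 1, 2 and 3, and 24.2, 11 and 17.1 in BML-260 replicates 1, 2 and 3. Every BML-260 library lay below every vehicle library, and vehicle replicate 3 lay far above the other vehicle libraries. In TPM the group means were 3.57 ± 3.68 with vehicle and 0.641 ± 0.187 with BML-260 (SD, n = 3). The log2 fold change was -2.05 ± 0.62 (SE; edgeR quasi-likelihood F-test, unadjusted p = 0.00963, Benjamini-Hochberg adjusted p = 0.699). It was -1.11 without vehicle replicate 3 (edgeR, unadjusted p = 0.0452, adjusted p over all genes not under 0.05), and Timp1 met the call in all 16 alternative analyses. The gene (identifier 21857, X:20870166-20874737 on GRCm38.p6) lies inside Syn1 on the opposite strand, whose counts were between 0 and 7.

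Among the proteases, Mmp2 (gelatinase A), which degrades denatured collagen and basement membrane collagen, was the most abundant MMP. Its TPM was 31.3, 19.2 and 36.8 with vehicle and 25.4, 14.7 and 16.0 with BML-260, which was between 43.0% and 68.8% of the summed MMP level. The groups overlapped, and the log2 fold change of -0.43 ± 0.28 did not meet the call (edgeR quasi-likelihood F-test, unadjusted p = 0.153, Benjamini-Hochberg adjusted p = 0.788). Without BML-260 replicate 1, the highest library of its group, it was -0.80 and met the call, as it did at -0.48 in a fit with the replicate number as a block.

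Mmp14 (MT1-MMP; identifier 17387, 14:54431598-54442456 on GRCm38.p6), the membrane-bound collagenase that activates pro-MMP2 together with TIMP2, was the second most abundant MMP by mean TPM over all libraries. In each BML-260 library Mmp15 was higher (4.02, 4.39 and 5.12 TPM, against 3.49, 4.35 and 4.05 TPM for Mmp14). Normalized counts of Mmp14 were 520, 667 and 1188 in the vehicle libraries and 413, 456 and 425 in the BML-260 libraries. The groups did not overlap, and the 3 BML-260 libraries lay close together. The log2 fold change was -0.88 ± 0.28 (SE; edgeR quasi-likelihood F-test, unadjusted p = 0.0129, Benjamini-Hochberg adjusted p = 0.709). It was -0.46 without vehicle replicate 3 (edgeR, unadjusted p = 0.0139), and the call was met in 15 of 16 alternatives, the exception being log2(TPM + 1).

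Mmp15 (MT2-MMP; identifier 17388, 8:95352296-95374293), a related membrane-bound MMP, moved the other way. Its normalized counts were 452, 400 and 194 with vehicle and 540, 523 and 610 with BML-260. The groups did not overlap here either, and vehicle replicate 3 was the lowest library. The log2 fold change was 0.68 ± 0.29 (SE; edgeR quasi-likelihood F-test, unadjusted p = 0.0478, Benjamini-Hochberg adjusted p = 0.788). It was 0.38 without vehicle replicate 3 (edgeR, unadjusted p = 0.0332), and 10 of 16 alternatives gave the call, which was lost without vehicle replicate 2 or any 1 of the BML-260 replicates (log2 fold change 0.60 to 0.79).

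Mmp3 (stromelysin-1), which cuts proteoglycans, laminin and fibronectin and activates other MMPs, and Mmp8 (neutrophil collagenase), which cuts fibrillar collagen, had the largest log2 differences of all members. Normalized counts of Mmp3 were 30.5, 53.4 and 498 with vehicle and 31.1, 20 and 11 with BML-260. Those of Mmp8 were 39.1, 12.7 and 258 with vehicle and 10.4, 17 and 9.78 with BML-260. For both genes vehicle replicate 3 was far above all other libraries, and the remaining vehicle libraries overlapped the BML-260 libraries. The log2 fold change of Mmp3 was -3.20 ± 1.02 (SE; edgeR quasi-likelihood F-test, unadjusted p = 0.0128, Benjamini-Hochberg adjusted p = 0.709) and that of Mmp8 was -3.06 ± 0.99 (unadjusted p = 0.0139, adjusted p = 0.733). Without vehicle replicate 3 they were -0.99 and -1.08, without BML-260 replicate 3 they were -2.92 and -2.93, and neither met the call in either case. The call was met in 10 of 15 alternatives for Mmp3 and in 9 of 15 for Mmp8. Mmp8 lies inside the noncoding RNA gene Gm31751, whose count was at most 6 in any library.

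**Figure D2:**
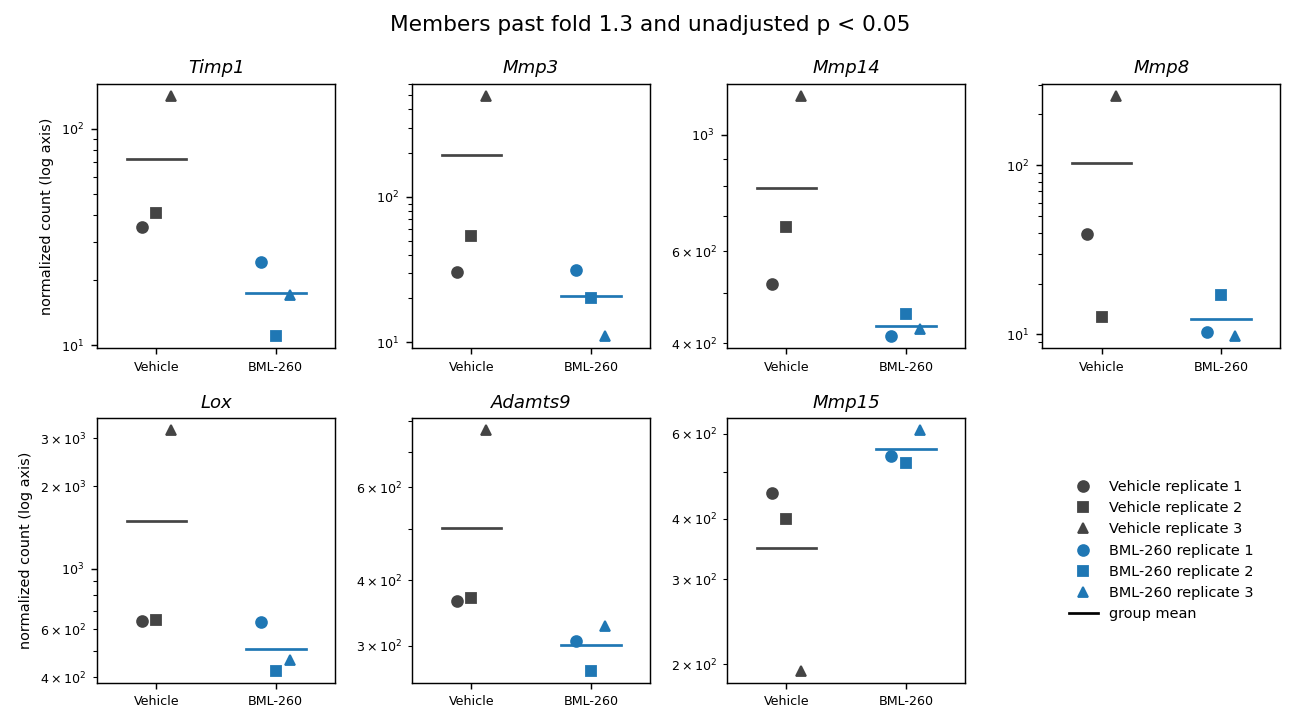
Normalized counts of the 7 members that met the call in each of the 6 libraries, on log axes that differ between panels, with a line at each group mean. Vehicle replicate 3 (gray triangle) is the highest library for the 6 lower genes and the lowest for Mmp15, and the groups overlap for Mmp3 and Mmp8.

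The remaining MMPs with a mean of at least 1 TPM did not meet the call. Mmp11 (stromelysin-3), a stromal MMP, was at 1.39, 2.19 and 5.72 TPM with vehicle and at 1.23, 1.10 and 1.75 TPM with BML-260 (log2 fold change -0.86 ± 0.40). Mmp19 was at 1.52, 1.13 and 3.39 TPM with vehicle and at 1.13, 1.31 and 0.817 TPM with BML-260 (log2 fold change -0.65 ± 0.32). Mmp23, which has a transmembrane anchor at its amino terminus, was at 0.839, 0.764 and 1.68 TPM with vehicle and at 1.18, 0.522 and 1.26 TPM with BML-260 (log2 fold change 0.22 ± 0.37). All 3 overlapped between the groups. Mmp11 met the call without vehicle replicate 1 (log2 fold change -1.16) and Mmp19 without vehicle replicate 2 (log2 fold change -0.85). Without vehicle replicate 3 the values were -0.33 for Mmp11 and -0.30 for Mmp19. With all 6 libraries Mmp11 also met the call in DESeq2 and with no filter.

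Mmp3, Mmp8 and Mmp12 (macrophage elastase) lie in a cluster of 10 MMP genes on chromosome 9 that spans 427.1 kb (9:7272514-7699585 on GRCm38.p6). Mmp12 counts were 22, 10 and 63 with vehicle and 26, 7 and 21 with BML-260. Of the other genes in the cluster, none of which is among the 40, Mmp13 (collagenase-3) had 490 counts in vehicle replicate 3. It had at most 11 in any other library and 0 in BML-260 replicate 1. Mmp13 has no TPM value, and the filter on low counts also left it out of the test. Mmp27 had at most 18 counts, Mmp10 had 7 counts in vehicle replicate 1 alone, and Mmp1a had 2 counts in 1 library. Mmp1b, Mmp7 and Mmp20 had 0 counts in all libraries, which allows a level of up to 0.0526 to 0.0759 CPM (3 counts of each library's total, covering counting error only). Thus in vehicle replicate 3 the 4 genes Mmp3, Mmp8, Mmp12 and Mmp13 were all at their highest.

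The promoter sequence just before the start of the transcript is shown for the MMPs and the TIMP that met the call, as 150 bases, 5′ to 3′, from RefSeq on GRCm38.p6. They are shown because the genes that were high in vehicle replicate 3 and the gene that was low there can be read side by side. Capitals mark a match to the AP-1 motif TGANTCA or the TATA box TATAAA.
Mmp3, chr9:7445672-7445821, + strand: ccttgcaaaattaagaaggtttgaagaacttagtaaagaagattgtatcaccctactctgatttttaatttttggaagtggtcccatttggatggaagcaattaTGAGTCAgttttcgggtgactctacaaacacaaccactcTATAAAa
Mmp8, chr9:7558279-7558428, + strand: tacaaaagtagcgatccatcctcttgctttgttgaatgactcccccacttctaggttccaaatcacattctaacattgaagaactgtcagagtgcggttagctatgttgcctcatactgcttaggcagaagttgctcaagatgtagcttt
Mmp14, chr14:54431448-54431597, + strand: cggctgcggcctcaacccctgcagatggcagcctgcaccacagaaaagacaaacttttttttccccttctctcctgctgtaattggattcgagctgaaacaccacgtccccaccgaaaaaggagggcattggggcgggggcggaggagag
Timp1, chrX:20870016-20870165, + strand: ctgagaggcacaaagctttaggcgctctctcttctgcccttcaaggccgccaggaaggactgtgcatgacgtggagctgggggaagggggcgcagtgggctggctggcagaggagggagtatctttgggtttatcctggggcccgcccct
Mmp15, chr8:95352146-95352295, + strand: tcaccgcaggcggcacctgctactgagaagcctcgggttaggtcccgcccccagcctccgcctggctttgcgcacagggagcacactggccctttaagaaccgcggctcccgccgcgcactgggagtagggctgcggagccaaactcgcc

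Mmp3 has TGAGTCA at positions -46 to -40 and TATAAA at -7 to -2 relative to the annotated start, and the other 4 sequences hold neither motif. Their GC content was 35.3% for Mmp3, 42.7% for Mmp8, 57.3% for Mmp14, 62.7% for Timp1 and 68.7% for Mmp15, around a median of 54.0% for all promoters. Over the 250 bases before the start and on both strands, the AP-1 motif was found in 2 of the 24 members with a promoter in the table (Mmp3 and Mmp12), or 7.69% of their 26 promoters, and in 6.75% of all 32851 promoters. The letters TATAAA were found in 3 members (Mmp3, Adamts1 and Adamtsl2), 11.5% of their promoters, and in 12.4% of all promoters. They lie at -32 to -27 in Adamts1 and at -30 to -25 in Adamtsl2, farther from the annotated start than in Mmp3. Whether the match in Mmp3 acts as a TATA box was not tested. The AP-1 variant TGAGTAA was in 0 of the members' promoters and in 2.25% of all promoters. These shares describe the letters in these windows, and the members' shares lie near those of all promoters.

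Adamts1, a protease of versican and aggrecan, was the most abundant ADAMTS gene, with between 41.2% and 63.9% of the family's summed TPM. Its TPM was 17.1, 21.7 and 59.2 with vehicle and 12.9, 15.9 and 21.9 with BML-260. BML-260 replicate 3 reached the level of vehicle replicate 2, so the groups overlapped, and the log2 fold change was -0.69 ± 0.33 (SE; edgeR quasi-likelihood F-test, unadjusted p = 0.0637, Benjamini-Hochberg adjusted p = 0.788). It met the call without vehicle replicate 1 (log2 fold change -0.94), and without vehicle replicate 3 it was -0.23. With all 6 libraries the call was met with no filter, in DESeq2 and with a replicate block. Adamts5, a neighbouring aggrecanase gene on chromosome 16, was at 5.29, 5.82 and 8.43 TPM with vehicle and at 5.29, 4.91 and 4.79 TPM with BML-260 (log2 fold change -0.20 ± 0.15).

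Adamts9, a proteoglycan-cutting ADAMTS, was the only one of the family that met the call. Its normalized counts were 365, 370 and 769 with vehicle and 307, 269 and 327 with BML-260. The groups did not overlap, although 2 vehicle libraries lay just above the BML-260 libraries. The log2 fold change was -0.74 ± 0.29 (SE; edgeR quasi-likelihood F-test, unadjusted p = 0.0346, Benjamini-Hochberg adjusted p = 0.788), and 9 of 16 alternatives gave the call. Without vehicle replicate 3 it was -0.29, without any 1 of the BML-260 replicates it was -0.80 to -0.66, and the call was lost in each case. Adamts9 (6:92772699-92944450 on GRCm38.p6) overlaps the noncoding genes 9530026P05Rik, A730049H05Rik and Gm15737 on the opposite strand, each with at most 87 counts in a library.

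The ADAMTS genes that trim procollagens or are linked to fibrillin did not meet the call. Adamts2, the procollagen N-proteinase, was at 2.23, 2.27 and 3.60 TPM with vehicle and at 2.33, 2.41 and 1.88 TPM with BML-260 (log2 fold change -0.12 ± 0.17). Adamts10, which is linked to fibrillin microfibrils, was at 2.31, 2.34 and 3.82 TPM with vehicle and at 2.83, 1.90 and 3.71 TPM with BML-260 (log2 fold change 0.16 ± 0.24). Adamts6, its closest relative, had a log2 fold change of -0.11 ± 0.25, and that of Adamts12 was -0.17 ± 0.19. Adamts8, which falls outside the rule for naming and was named after its values were seen, had 104, 128 and 163 normalized counts with vehicle and 244, 163 and 134 with BML-260, and met the call only when vehicle replicate 3 was left out (log2 fold change 0.64, edgeR unadjusted p = 0.0436).

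Of the ADAMTS-like genes, Adamtsl5 held between 49.5% and 58.0% of the family's summed TPM and was at 9.22, 10.9 and 16.9 TPM with vehicle and between 9.06 and 11.7 TPM with BML-260 (log2 fold change -0.069 ± 0.15). Adamtsl4, a fibrillin-binding protein known from the lens zonule, was at 3.25, 5.22 and 5.25 TPM with vehicle and at 4.17, 5.18 and 6.27 TPM with BML-260 (log2 fold change 0.38 ± 0.19). Of this family 0 of 5 genes met the call. That of Adamtsl4 was met only without vehicle replicate 2 (log2 fold change 0.54).

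All 5 lysyl oxidase genes had a log2 fold change below 0, although that of Loxl4 lay above 0 without vehicle replicate 3 (0.58), and only Lox met the call. Lox (identifier 16948, 18:52516060-52529867 on GRCm38.p6), the founding enzyme of the family, had normalized counts of 644, 648 and 3204 with vehicle and of 636, 422 and 462 with BML-260. The groups did not overlap, but only vehicle replicate 3 was far from the rest. The log2 fold change was -1.56 ± 0.59 (SE; edgeR quasi-likelihood F-test, unadjusted p = 0.0284, Benjamini-Hochberg adjusted p = 0.788). It was -0.35 without vehicle replicate 3, -1.44 without BML-260 replicate 2 and -1.50 without BML-260 replicate 3, in each case short of the call, and 8 of 16 alternatives gave the call.

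Loxl1, the family member tied to elastic fiber upkeep, was at 2.68, 3.60 and 7.49 TPM with vehicle and at 3.01, 2.46 and 3.72 TPM with BML-260 (log2 fold change -0.35 ± 0.28). Loxl2, which cross-links basement membrane collagen IV, was at 2.97, 2.57 and 2.69 TPM with vehicle and at 2.31, 1.66 and 2.19 TPM with BML-260 (log2 fold change -0.27 ± 0.23). In TPM every BML-260 library of Loxl2 lay below every vehicle library, whereas by normalized counts the groups overlapped. Loxl3 had a log2 fold change of -0.31 ± 0.29, which was -0.65 and met the call without BML-260 replicate 1, and Loxl4, the rarest of the family, had one of -0.026 ± 0.48. Lox made up 69.1% of the summed lysyl oxidase TPM in vehicle replicate 3 and between 30.4% and 37.2% in the other libraries.

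**Figure D3:**
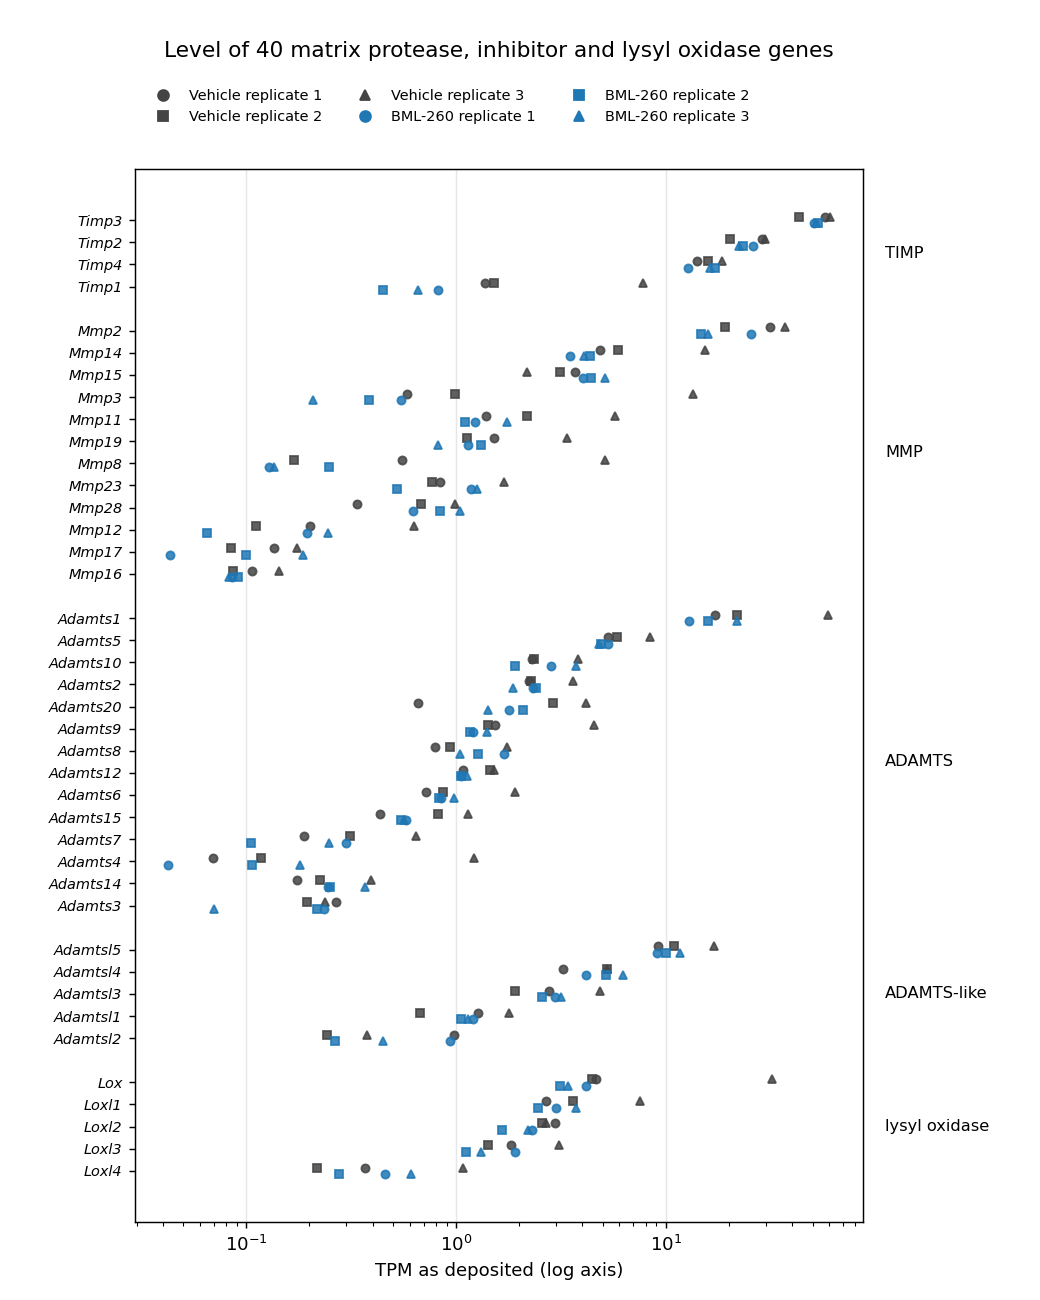
TPM of the 40 members in each library on a log axis, grouped by family, with vehicle in gray and BML-260 in blue. Timp3, Mmp2, Timp2, Adamts1 and Timp4 are at the top of the scale, and the gray triangles of vehicle replicate 3 stand to the right for many members.

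The 11 members with a mean under 1 TPM ranged from 0.0991 to 0.752 TPM and included Mmp12, Mmp16, Mmp17, Mmp28, Loxl4 and Adamts4. None met the call. Their log2 fold changes ran from -1.73 to 0.51. The lowest value was that of Adamts4, which had 158 normalized counts in vehicle replicate 3 and between 8.64 and 31.8 in the other libraries, and it was 0.16 without vehicle replicate 3.

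Summed over each family, the MMPs were at 45.4, 34.4 and 85.7 TPM with vehicle and at 38.1, 28.1 and 30.9 TPM with BML-260. Their ratio of group means was 0.586, or 0.810 without vehicle replicate 3 and 0.735 with normalized counts. The TIMPs were at 102, 80.4 and 117 TPM with vehicle and at 90.3, 93.8 and 91.3 TPM with BML-260, a ratio of 0.922, which was 1.01 without vehicle replicate 3 and 1.06 with normalized counts. Transcripts of the 12 MMP members were thus fewer than those of the 4 TIMPs in every library. The sum leaves out MMPs that are not among the members, such as Mmp13 (490 counts in vehicle replicate 3) and Mmp25 (63 counts there). The ratio of the summed MMP level to the summed TIMP level was 0.447, 0.428 and 0.735 with vehicle and 0.422, 0.300 and 0.338 with BML-260. Every BML-260 library lay below every vehicle library, by a small margin for BML-260 replicate 1, and the group means were 0.537 ± 0.172 and 0.353 ± 0.0622 (SD, n = 3). The ratio of these means was 0.658, or 0.807 without vehicle replicate 3, and no test was made of it. The ratio of Mmp2 to Timp2 was 1.09, 0.953 and 1.24 with vehicle and 0.981, 0.632 and 0.716 with BML-260, where BML-260 replicate 1 overlapped the vehicle libraries.

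The ADAMTS genes summed to 32.8, 41.4 and 92.5 TPM with vehicle and to 31.3, 32.8 and 39.7 TPM with BML-260, and the lysyl oxidases to 12.5, 12.3 and 46.4 TPM with vehicle and to 11.9, 8.63 and 11.2 TPM with BML-260. For both families vehicle replicate 3 was far above every other library. The ratio of group means was 0.622 for ADAMTS and 0.446 for lysyl oxidase genes, and 0.932 and 0.855 without vehicle replicate 3. These sums are in TPM, which was higher in vehicle replicate 3 over tested genes at large (median ratio 1.42, against 1.00 with normalized counts). The ADAMTS-like genes summed to 17.5, 18.9 and 29.2 TPM with vehicle and to 18.3, 19.1 and 22.8 TPM with BML-260.

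**Figure D4:**
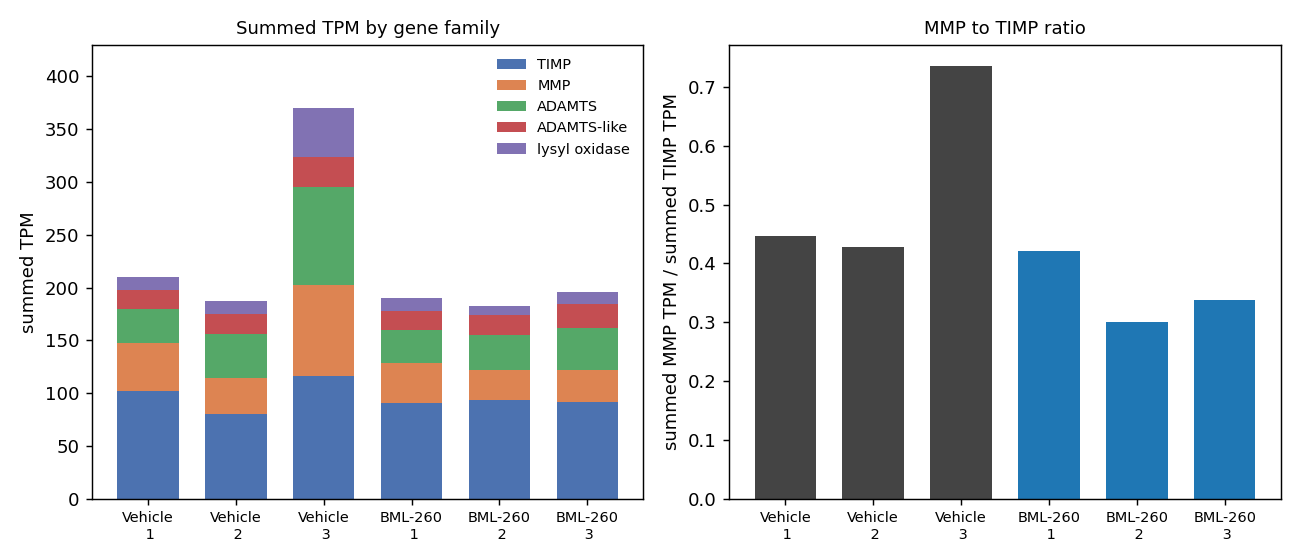
Left, summed TPM of each family stacked for each library. Right, the ratio of the summed MMP level to the summed TIMP level, with vehicle in gray and BML-260 in blue. Vehicle replicate 3 has the tallest bar in both panels, at 370 TPM and a ratio of 0.735, and the TIMP segment is the largest in every library.

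The genes that act beside these enzymes were taken from 4 further lists. In the list of other pericellular proteolysis genes (ADAM proteases, cathepsins, plasminogen activators and their partners), 8 of 33 tested genes (24.2%, against 5.75% of all tested genes) met the call, 7 lower and 1 higher, with a median of -0.12. Adam8, an ADAM protease of leukocytes, went from 1.49 ± 1.90 to 0.227 ± 0.0311 TPM (SD, n = 3), and Plaur, the urokinase receptor, from 1.88 ± 1.82 to 0.454 ± 0.159 TPM. Ctss and Ctsk, cathepsins known from macrophages and osteoclasts, went from 27.8 ± 24.1 to 8.83 ± 3.33 TPM and from 8.10 ± 4.20 to 3.87 ± 1.16 TPM. On the log2 scale the hyaluronan receptor Cd44 differed by -0.97, the secreted serine protease Htra3 by -0.52 and Adam15, another ADAM protease, by -0.56. The last of these and the higher gene fall outside the rule for naming and were named after their values were seen. The higher gene was Spock3, a secreted proteoglycan, at 0.116 ± 0.0329 and 0.234 ± 0.0826 TPM. With vehicle replicate 3 left out, only Adam8 (log2 fold change -0.80) and Ctss (-0.66) of the 33 met the call, Plaur was at -0.84, Ctsk at -0.54, Cd44 at -0.46, Htra3 at -0.29 and Adam15 at -0.27.

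In the list of collagen modification and folding, 1 of 16 tested genes (6.25%) met the call, P4ha2, a subunit of collagen prolyl hydroxylase (log2 fold change 0.44), and 0 did without vehicle replicate 3. The share was near that of all tested genes, and the median was -0.092. In the list of matrix substrates, 5 of 28 (17.9%) met the call, all lower, with a median of -0.21. They were Bgn (biglycan, log2 fold change -0.82), Eln (elastin, -1.02), Postn (periostin, -0.86), Thbs1 (thrombospondin-1, -1.54) and Col1a1 (a chain of collagen I, -0.43). Without vehicle replicate 3 the median was -0.14 and 3 genes of the list met the call, all lower. Col1a1 and Thbs1 (then at -0.29) were not among them, and Postn was at -0.40.

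The list of inducers and regulators of protease genes had the largest share of called genes among the 4, 9 of 18 (50%), all lower, with a median of -0.79. Runx1, a transcription factor that rises in denervated muscle, went from 8.17 ± 4.28 to 1.18 ± 0.206 TPM (SD, n = 3). Il1b, the cytokine interleukin-1 beta, went from 3.95 ± 4.05 to 0.322 ± 0.0951 TPM, and Osmr, the oncostatin M receptor, from 9.40 ± 4.66 to 4.38 ± 0.294 TPM. Junb and Fosl2, which encode subunits of AP-1, had log2 fold changes of -2.16 and -0.81, and Socs3, the feedback inhibitor of cytokine signaling, had one of -2.74. Without vehicle replicate 3 the median was -0.21 and 6 genes of the list met the call. Runx1 was then at -2.50, Il1b at -2.07, Osmr at -0.64, Junb at -0.85, Fosl2 at -0.40 and Socs3 at -0.76.

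Several marker lists held genes that met the call as lower. Of the neutrophil markers 5 of 8 were tested, and all 5 met the call as lower, and the summed TPM of the 4 that have a TPM value was 165, 23.8 and 801 with vehicle and 7.40, 6.70 and 12.1 with BML-260. Of 10 macrophage markers 9 met the call as lower, with sums of 143, 143 and 606 TPM with vehicle and 98.9, 86.1 and 108 TPM with BML-260. In the list of regeneration and denervation 6 of 8 genes met the call as lower. This list summed to 179, 338 and 422 TPM with vehicle and to 141, 173 and 211 TPM with BML-260. Runx1 is in that list and in the list of regulators. These 3 lists were lower in vehicle replicates 1 and 2 than in vehicle replicate 3, and without that library 5, 8 and 6 of their genes still met the call. Their part in the values of the proteases and inhibitors was not tested.

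Of 10 fibroblast markers 7 had a log2 fold change below 0, with a median of -0.18. Of the 10, 1 met the call as lower (Col1a1, also a matrix substrate). The fibroblast markers summed to 698, 351 and 989 TPM with vehicle and to 632, 482 and 406 TPM with BML-260. In the fit that left out vehicle replicate 3 their median was -0.082, 0 met the call as lower and 1 met it as higher. In the endothelial list (8 genes), the pericyte and smooth muscle list (7), the tendon list (5), the Schwann list (5), the mast cell list (4), the adipocyte list (3) and the bone and cartilage list (1 tested), 0 genes met the call. Of 5 satellite cell markers 1 met the call as lower, and of 9 muscle fiber markers 0 met the call. Schwann markers summed to 101 TPM and adipocyte markers to 26.4 TPM in vehicle replicate 3, against 21.5 to 32.3 TPM and 1.75 to 3.37 TPM in the other libraries. Without that library 2 of 5 Schwann genes met the call as higher, the Schwann median turned from -0.31 to 0.48 and the adipocyte median from -1.56 to 0.45. Whether nerve or fat tissue in that library had a part in the members' values was not tested.

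**Figure D5:**
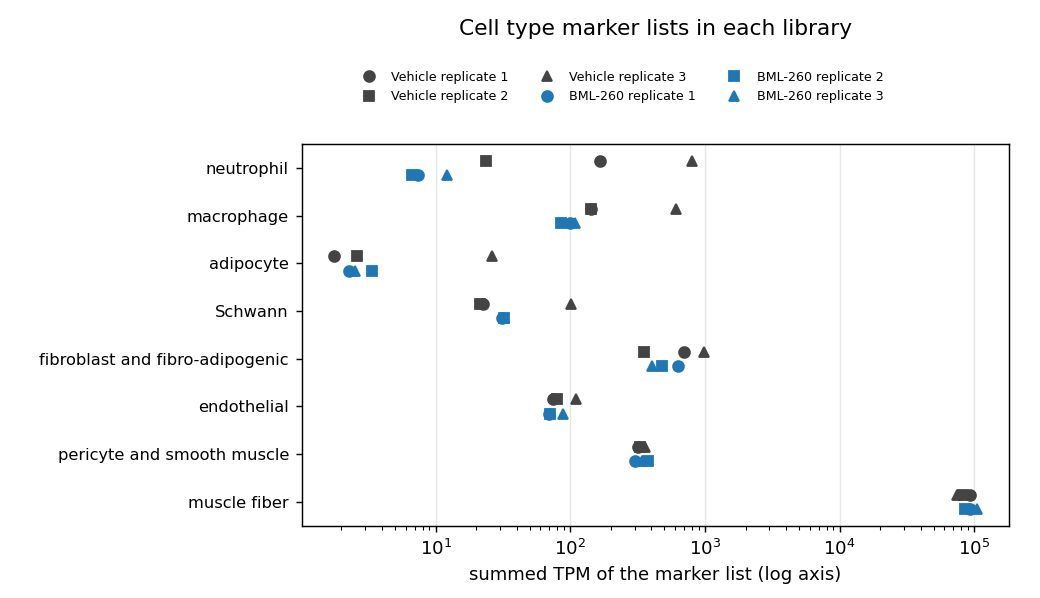
Summed TPM of 8 cell type marker lists in each library on a log axis. Vehicle replicate 3 (gray triangle) is the highest library for the neutrophil, macrophage, adipocyte, Schwann, fibroblast and endothelial lists, and the lowest for the muscle fiber list.

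The 5 most abundant members (Timp3, Mmp2, Timp2, Adamts1 and Timp4) did not meet the call in the edgeR test of all 6 libraries, although Adamts1 and Mmp2 did in alternatives given above. There was no overlap between the vehicle and BML-260 libraries for 5 of the 40 members (Timp1, Mmp14, Lox and Adamts9 lower, Mmp15 higher). This share was near that of all tested genes, 12.1%, with 6.7% lower and 5.43% higher. With and without vehicle replicate 3, Timp1 and Mmp14 met the call as lower and Mmp15 as higher. Timp1 and Mmp14 also met it without each of the other libraries.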

How the data were processed

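The authors trimmed the reads, mapped them and assembled transcripts (the submitters' processing notes name Trimmomatic 0.38, mm10, StringTie 2.1.3b, HISAT2 2.1.0 and, separately, Bowtie2 2.3.4.1), and deposited raw counts per gene for 6 libraries and TPM per library. How strand and multi-mapped reads were counted is not given in the sources used here. The kit keeps strand. The 45777 genes of the count table were named and placed with RefSeq on GRCm38.p6, the assembly of mm10 (45679 identifiers matched). The TPM tables list 16800 genes, each with a count in every library. 1 gene that the symbol rule matches is not reported here. The labels name no batch.

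Counts were tested in R 4.3.3 with edgeR 4.0.16: filterByExpr (16188 genes), TMM factors between 0.914 and 1.20, and the quasi-likelihood F-test with Benjamini-Hochberg adjustment over all tested genes. The standard error is the log2 fold change divided by the square root of F. Normalized counts were divided by DESeq2 1.42.0 size factors. Alternatives were RLE and upper quartile scaling, no filter, a minimum of 10 counts in each library, each library left out, a replicate block, DESeq2, limma 3.58.1 voom with quality weights, robust quasi-likelihood, and limma on log2(TPM + 1) or log2(TPM + 0.1). The code was tested on simulated data.

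All TIMPs and lysyl oxidases were named, as were the 2 most abundant genes of each role group of the other families where the mean was at least 1 TPM, the members that met the call, and up to 6 called genes per further list. The members and lists were chosen with earlier results of these data known. Samples of a group are separate mice, and groups of 3 limit the precision. Motifs were searched by exact letters on both strands. Figures used matplotlib 3.10.9.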

Additional observations from a re-analysis of the deposited data

How the results depend on the processing

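Of the 40 members, 7 met the call, and between 2 and 11 did when 1 library was left out: 11 without vehicle replicate 1, 4 without vehicle replicate 3, 4 without BML-260 replicate 2 and 2 without BML-260 replicate 3. DESeq2 gave 10 and no filter gave 9, while limma voom gave 3, log2(TPM + 1) gave 1 and log2(TPM + 0.1) gave 3. The adjusted p of Timp1 ran from 0.13 to 1.00 over the alternatives. The lowest adjusted p of a named member over the alternatives was 0.054, that of Mmp8 in the DESeq2 Wald test. Mmp8 did not meet the call without vehicle replicate 3. Over all genes 931 of 16188 met the call, and between 503 and 2223 did with 1 library left out. These were 2223 of 16719 without vehicle replicate 1 and 657 of 16502 without vehicle replicate 3. Without BML-260 replicate 2 they were 503 of 16767, and without BML-260 replicate 3 they were 656 of 16765. Voom gave 890 of 16188, DESeq2 1021 of 16188 and no filter 1416 of 25780. The fits on log2(TPM + 1) and log2(TPM + 0.1) gave 503 and 683 of 15627. With log2(TPM + 1) and without BML-260 replicate 3, the members' share was near that of all genes. The median over the members stayed below 0 in every alternative, and ran from -0.31 to -0.086 with 1 library left out. Tests on log2 TPM moved the median of all genes to -0.098 (pseudocount 1) and -0.14 (pseudocount 0.1), and 34 members then lay below 0.

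Signs turned for the following values, and the cause was not tested. Leaving out vehicle replicate 3 also turned them for Adamts4 (-1.73 to 0.16), Adamts20 (-0.32 to 0.063), Mmp12 (-0.57 to 0.10) and Adamtsl2 (0.20 to -0.11). With 1 library left out, the range was -0.21 to 0.041 for the median of collagen modification genes, -0.045 to 0.38 for Adamts10, -0.23 to 0.00045 for Adamts2, -0.25 to 0.016 for Adamts12, -0.30 to 0.16 for Adamts6, -0.17 to 0.029 for Adamtsl5, -0.34 to 0.58 for Loxl4 and -0.099 to 0.19 for Timp2. With voom the values were 0.038 for collagen modification, 0.057 for Adamts6, 0.46 for Loxl4 and -0.022 for Timp4. With log2(TPM + 1) and log2(TPM + 0.1) they were -0.0088 and -0.015 for Adamts10, -0.071 and -0.14 for Mmp23, -0.029 and -0.029 for Timp3, -0.11 and -0.12 for Timp2, and -0.073 and -0.077 for Timp4. The ratio of summed TIMP levels, 0.922, ran from 0.841 to 1.01 with 1 library left out and was 1.06 with normalized counts.

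Deviations of same-numbered libraries correlated at 0.137, 0.0514 and 0.101, so the numbers were not taken as pairs, although each library correlated best with its own number. With a replicate block 6 members (4 of the 7) and 1057 genes met the call, and Loxl4 was at 0.083. The calls of Lox, Mmp3 and Mmp8 were lost under the block (log2 fold changes -1.12, -2.14 and -2.16), and Mmp2 (-0.48) and Adamts1 (-0.61) met it. Depth limits the members with a mean under 1 TPM, and with 3 mice a group a difference that missed the call is not shown to be absent.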
